A study of Mus musculus with 4 samples.

Results

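Snhg11, Mogat1 and Lrp2 are 3 of the 32285 genes in the count matrices of 4 single-nucleus RNA libraries of mouse pituitary gland. They were chosen by their counts in stem nuclei, which were higher in both libraries labelled female than in both labelled male, so that difference is described below and carries no test. The mice were UM-HET3 wild-type animals, a genetically heterogeneous stock bred by crossing inbred strains. The labels give 1 library each for 22-month females, 5-month females, 22-month males and 5-month males, each a pool of 3 glands. With a single library in every group, values have no spread between samples, and intervals cover counting error only. Mice within a pool cannot be separated, so 1 animal of a pool could set a value.

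Snhg11 is a small nucleolar RNA host gene, a long transcript whose introns carry small nucleolar RNAs and whose spliced product is known from neurons. Mogat1 encodes a monoacylglycerol acyltransferase, which joins a fatty acid to monoacylglycerol to make diacylglycerol. Lrp2 encodes megalin, a very large endocytic receptor of the low-density lipoprotein receptor family that takes up lipoproteins, vitamin carriers and hormones at the surface of epithelial cells. Pituitary stem cells are Sox2-positive epithelial cells that line the cleft of the gland and lie scattered in the anterior lobe, and pituicytes are the glial cells of its posterior lobe.

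The deposited annotation IDs were matched to mm10. Snhg11 (ENSMUSG00000044349) lies on chromosome 2 from 158375638 to 158386145 on the plus strand. Its type is protein_coding in GENCODE M21, whereas RefSeq lists a long noncoding RNA. Mogat1 (ENSMUSG00000012187) lies on chromosome 1 from 78510991 to 78538173 on the plus strand, and Lrp2 (ENSMUSG00000027070) on chromosome 2 from 69424340 to 69586065 on the minus strand.

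The promoters are shown because the 3 genes, chosen for the same difference between libraries, lie at separate loci. That shared difference is how they were chosen, so nothing is read from it here. Each window holds 250 bases before and 50 after the RefSeq start, 5′ to 3′ on the gene's strand, in GRCm38.p6: chr2:158375463-158375762 for Snhg11, chr1:78510810-78511109 for Mogat1 and chr2:69585980-69586279, minus strand, for Lrp2. Capitals mark matches to the E-box CANNTG or the GC box GGGCGG.
Snhg11: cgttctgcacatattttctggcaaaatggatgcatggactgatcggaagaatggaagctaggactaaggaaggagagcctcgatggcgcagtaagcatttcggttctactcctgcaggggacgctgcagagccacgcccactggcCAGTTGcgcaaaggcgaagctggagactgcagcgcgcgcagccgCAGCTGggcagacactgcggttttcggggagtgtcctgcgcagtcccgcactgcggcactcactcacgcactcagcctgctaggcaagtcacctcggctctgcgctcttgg
Mogat1: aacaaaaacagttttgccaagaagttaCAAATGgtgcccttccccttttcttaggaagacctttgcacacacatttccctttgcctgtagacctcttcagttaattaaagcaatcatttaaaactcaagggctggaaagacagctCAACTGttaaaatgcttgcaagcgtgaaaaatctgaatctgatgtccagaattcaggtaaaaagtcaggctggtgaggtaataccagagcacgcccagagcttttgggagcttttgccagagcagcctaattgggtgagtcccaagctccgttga
Lrp2: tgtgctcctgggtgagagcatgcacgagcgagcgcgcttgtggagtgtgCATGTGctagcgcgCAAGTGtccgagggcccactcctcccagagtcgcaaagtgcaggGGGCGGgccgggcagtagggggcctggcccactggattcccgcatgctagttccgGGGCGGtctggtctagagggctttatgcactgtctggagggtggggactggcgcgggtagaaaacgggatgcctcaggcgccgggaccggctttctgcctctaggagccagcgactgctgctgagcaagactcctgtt
All 3 windows held 2 matches to the E-box, which reads the same on both strands and occurs in 72.3% of 32851 promoter windows of the same length. The GC box, searched on both strands, matched 2 times in Lrp2 only, and 35.7% of all windows hold it. The TATA box TATAAA matched in no window on either strand and occurs in 13.6% of all windows. Neither did the core of the cyclic AMP response element, TGACG, which 20.8% hold. The same was true of the nuclear receptor core site, spelled AGGTCA, which 16.3% hold. The Snhg11 and Lrp2 windows were rich in CpG, with 21 and 20 CpG dinucleotides at 60% and 65% GC, whereas Mogat1 had 3 at 43.7% GC. The medians over all windows were 7 CpG and 52.7% GC. These are matches of letters and say nothing of binding.

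The sex-chromosome transcripts of 2 libraries went against their labels. Xist, which is transcribed from the inactive X chromosome, was found in 85.8% of nuclei of the library labelled 22-month females and 0.212% of the library labelled 5-month females, against 97.3% of the library labelled 22-month males and 0.112% of that labelled 5-month males. Transcripts of any of 4 Y-linked genes were found in 0.304%, 84.3%, 0.203% and 85.6% of nuclei in the same order. The libraries labelled 5-month females and 22-month males are therefore in doubt, and labels were kept as deposited. Within each pair of one labelled age, both libraries carried the same sex-chromosome transcripts. By these transcripts, neither such pair sets females against males, so a ratio of labelled females to labelled males below compares labels only. Were those 2 labels exchanged, each such pair would set 22-month against 5-month mice of 1 sex. Each ratio by labelled age sets a library rich in Xist against one rich in Y-linked transcripts. Whether any difference goes with sex, with age or with the library was not tested.

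The libraries held 7765 to 13595 barcodes and 33328821 to 65773807 UMIs (unique transcript counts). After filtering, 6597 to 10355 nuclei a library remained, with median UMIs of 3460 to 4745. They formed 25 clusters, of which 19 were named from markers into 11 classes and 6 stayed unnamed, holding 16.0% and 1.82% of nuclei of the libraries labelled 22-month and 5-month females, against 7.07% and 0.307% of those labelled 22-month and 5-month males. Of 38055 barcodes, 157 occurred in more than 1 library. The stem-like class was 1 cluster, led by Rbpms, with 274 and 225 nuclei in the labelled 22-month and 5-month females, and 857 and 338 in the labelled 22-month and 5-month males. All 8 stem markers had counts in it in every library, Sox2 and Sox9 among them, and none differed 2-fold in one direction in both pairs. The 3 genes were kept out of the clustering. Levels below are counts per 1000000 UMIs of the class (CPM).

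In stem-like nuclei Snhg11 had 684 UMIs in the library labelled 22-month females and 512 in that labelled 5-month females, against 350 and 92 in the labelled 22-month and 5-month males. These gave 725 (95% Poisson interval 672 to 782) and 779 (713 to 849) CPM in the labelled females, against 137 (123 to 152) and 117 (94.1 to 143) CPM in the labelled males. Both female-labelled libraries lay far above both male-labelled ones, an order that the choice of Snhg11 required. The share of all genes in that order was not counted. The ratio was 5.31 (95% exact binomial interval 4.66 to 6.06) at the labelled age of 22 months and 6.67 (5.33 to 8.42) at 5 months.

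Mogat1 had 55 and 37 UMIs in stem-like nuclei of the labelled 22-month and 5-month females, against 33 and 11 in the labelled 22-month and 5-month males. These gave 58.3 and 56.3 CPM against 12.9 and 14.0 CPM, an order that the choice of Mogat1 required. The ratio was 4.53 (2.89 to 7.20) at 22 months and 4.03 (2.01 to 8.76) at 5 months.

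Lrp2 had 41 and 31 UMIs in stem-like nuclei of the labelled 22-month and 5-month females, against 31 and 6 in the labelled 22-month and 5-month males. These gave 43.5 and 47.2 CPM against 12.1 and 7.62 CPM, again in the order that its choice required. The ratio was 3.59 (2.20 to 5.92) at 22 months and 6.19 (2.54 to 18.2) at 5 months. The 5-month ratio rests on 6 UMIs in the library labelled 5-month males.

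**Figure D1:**
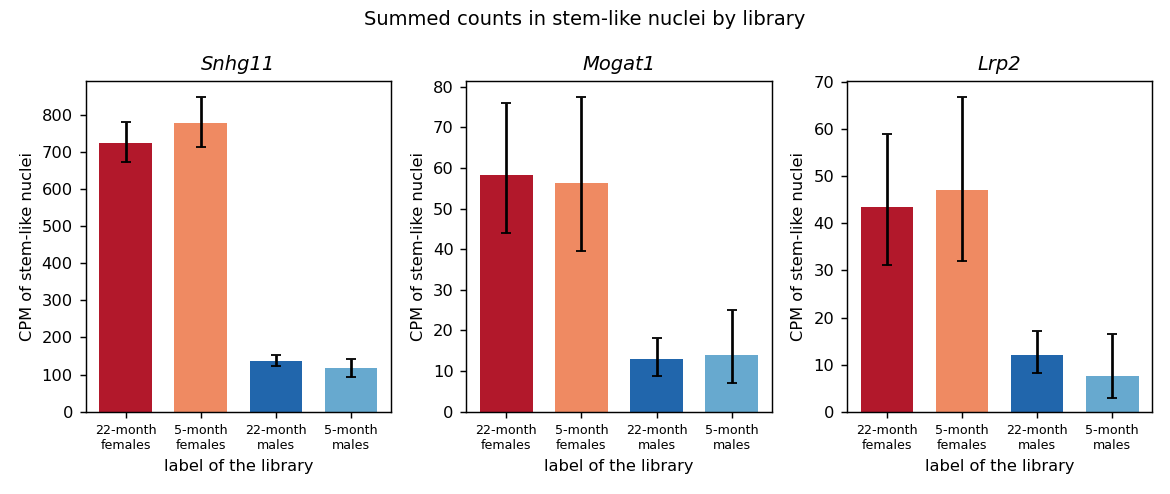
Levels of the 3 genes in stem-like nuclei of each library, in counts per 1000000 UMIs of the class, with 95% Poisson intervals for counting error as bars. Each bar is 1 library. As the choice of the genes required, both female-labelled libraries stand above both male-labelled ones, by 5.31- and 6.67-fold for Snhg11.

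By labelled age the ratios in stem-like nuclei lay nearer to 1. The members were chosen on the ratios by labelled sex, which favours that order, so nothing is read from it. The ratio of labelled 22-month to labelled 5-month libraries for Snhg11 was 0.932 (0.830 to 1.05) among labelled females and 1.17 (0.928 to 1.49) among labelled males. For Mogat1 it was 1.04 (0.671 to 1.62) and 0.923 (0.455 to 2.02), and for Lrp2 0.922 (0.564 to 1.52) and 1.59 (0.653 to 4.66). All 6 intervals include 1, and none of the 3 genes passed the 2-fold rule by labelled age in stem-like nuclei, where 1.58% of genes were higher and 0.818% lower in both labelled sexes. The intervals of Mogat1 and Lrp2 are wide enough to leave changes of 1.5-fold undetectable at this depth. These ratios use the same 4 libraries as the ratios by labelled sex, and each sets a library rich in Xist against one rich in Y-linked transcripts.

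Leaving out both libraries in doubt sets the library labelled 22-month females against that labelled 5-month males, which differ in labelled sex and age together. The ratios were then 6.21 (4.99 to 7.81) for Snhg11, 4.18 (2.16 to 8.85) for Mogat1 and 5.71 (2.41 to 16.5) for Lrp2 in stem-like nuclei.

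Against all 11002 genes with at least 40 counts in stem-like nuclei over the 4 libraries, 26 (0.236%) were at least 2-fold higher in labelled females in both pairs and 36 (0.327%) at least 2-fold lower. With TMM factors, or without the hormone genes in the totals, 13 were higher. The 3 members are among the 26, as their choice required, so nothing is read from that share or from their ranks. Ordered by the smaller of both log2 folds, with a prior count of 2, they stood at ranks 1, 2 and 3, at 2.40 for Snhg11, 1.82 for Mogat1 and 1.75 for Lrp2. Just inside the 2-fold threshold was Phkg1, with a smaller fold of 2.004, and just outside it Agbl4, with 1.987. The next 5 genes after the members were AC149090.1, Abca13, Folh1, Prkg1 and Nat8f3. AC149090.1 had log2 folds of 1.69 at 22 months and 1.66 at 5 months, and Prkg1, a cyclic GMP-dependent protein kinase, 1.24 and 1.32. The median log2 fold of all genes was 0.11 in the 22-month pair and 0.04 in the 5-month pair with this scaling.

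**Figure D2:**
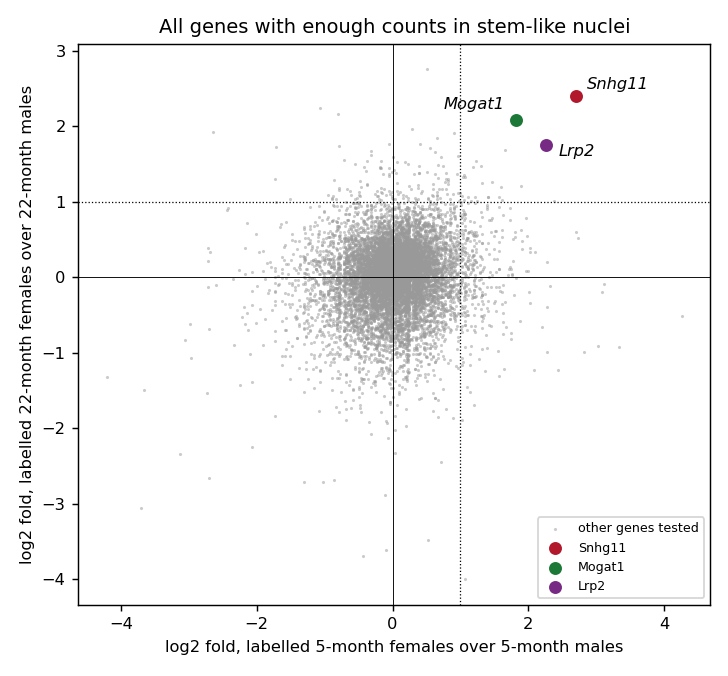
Log2 folds of labelled females over labelled males in stem-like nuclei for all 11002 genes tested, the 5-month pair on the horizontal and the 22-month pair on the vertical axis. Dotted lines mark 2-fold. The 3 members, which were chosen on this contrast, lie in the upper right corner at ranks 1, 2 and 3 by the smaller fold.

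More stem-like nuclei held a member transcript in the labelled females. Snhg11 was found in 43.4% and 40% of stem-like nuclei of the labelled 22-month and 5-month females, against 14.5% and 8.88% in the labelled 22-month and 5-month males. The median UMIs of these nuclei were 2939 and 2755 against 2696 and 2147. Thinned to 2000 UMIs a nucleus, the shares were 42.0% and 38.7% against 11.8% and 9.60%, leaving out 43 and 44 shallower nuclei against 170 and 140. Mogat1 was in 14.2% and 12.9% of nuclei against 3.27% and 2.96%, or thinned 11.7% and 10.5% against 2.62% and 3.03%. Lrp2 was in 10.2% and 10.7% against 3.27% and 1.78%, or thinned 5.19% and 9.39% against 1.89% and 1.52%. Labelled females lay above labelled males at both ages with and without thinning for all 3 genes. The genes were chosen on their counts in these nuclei, which favours that order, so nothing is read from it.

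For comparison, no Mogat1 or Lrp2 UMI was found in 417 endothelial-like nuclei, which allows a share of nuclei with a UMI of up to 0.719%, at median depths of 1496.5 to 2328 UMIs a library. This limits nuclei with a UMI at that depth, not nuclei that express the genes. Snhg11 had no class without it. In pituicyte-like nuclei, where its level was lowest, it was found in 10.4% and 21.3% of nuclei of the libraries labelled 22-month and 5-month females, against 15.2% and 4.35% in the labelled 22-month and 5-month males, at deeper medians of 4023.5 to 5057.5 UMIs. In the library labelled 22-month males the unthinned share was 14.5% in stem-like and 15.2% in the deeper pituicyte-like nuclei, whereas thinned shares were 11.8% and 9.28%, and levels 137 (123 to 152) and 73.2 (51.0 to 102) CPM. The part of free RNA in these counts was not tested. Barcodes removed for having under 500 genes, the nearest view of free RNA in the files, held Snhg11 at 154 and 174 CPM in the labelled 22-month and 5-month females, against 112 and 56.0 CPM in the labelled 22-month and 5-month males. The stem-like levels were 4.72 and 4.48 times these values in the labelled females, against 1.22 and 2.09 times in the labelled males.

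Snhg11 differed both in UMIs per nucleus and in the number of nuclei with any, in the nuclei it was chosen on. After thinning, 20.8% and 21.5% of stem-like nuclei held 3 or more Snhg11 UMIs in the labelled 22-month and 5-month females, against 3.35% and 2.53% in the labelled 22-month and 5-month males. A single nucleus held up to 26 and 22 UMIs in the labelled females and up to 14 and 12 in the labelled males. The 10 richest nuclei held 27.8% and 33.8% of the Snhg11 UMIs in the labelled females, against 28.0% and 70.7% in the labelled males. Counting at most 3 UMIs a nucleus, an alternative chosen after seeing the data, lowered the ratios to 3.36 at 22 months and 4.31 at 5 months. With doublets kept, they were 2.86 and 3.23.

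**Figure D3:**
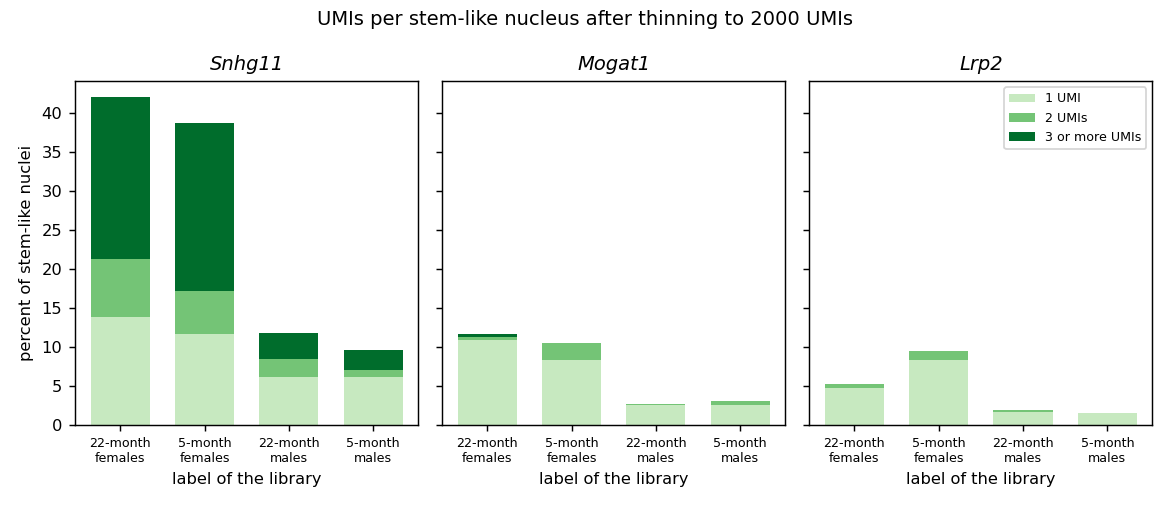
Percent of stem-like nuclei with 1, 2 or 3 or more UMIs of each gene after thinning each nucleus to 2000 UMIs, by library. The darkest band, nuclei with 3 or more Snhg11 UMIs, reaches 20.8% and 21.5% in the labelled females and 3.35% and 2.53% in the labelled males. The genes were chosen on their counts in these nuclei.

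Detection of the 3 genes was also counted within single nuclei. Of 499 stem-like nuclei of the labelled females, 209 held Snhg11, 68 Mogat1 and 52 Lrp2, and 8 held both Mogat1 and Lrp2. The order for Snhg11 and Mogat1 differed between the 2 libraries, on few nuclei, and was not tested. Snhg11 was in 22 of 39 nuclei with Mogat1 (56.4%) and 41.3% of those without in the labelled 22-month females. In the labelled 5-month females it was in 9 of 29 (31.0%) and 41.3%. Median UMIs with and without Mogat1 were 3701 and 2832 at 22 months, and 3046 and 2708 at 5 months. Snhg11 was in 53.6% of nuclei with Lrp2 and 42.3% of those without at 22 months, and in 45.8% and 39.3% at 5 months. Over both libraries, nuclei with Mogat1 or Lrp2 were also deeper, at medians of 3260.5 and 3383.5 UMIs against 2761 and 2771 in those without. In the labelled males, 154 of 1195 nuclei held Snhg11, 38 Mogat1 and 34 Lrp2, and none held both Mogat1 and Lrp2.

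Of the markers listed for other cell types, some sums moved with the labels in stem-like nuclei and others did not. Gonadotrope markers summed to 37.1 CPM in labelled females against 57.4 in labelled males at 22 months, and 111 against 96.5 CPM at 5 months. Macrophage markers summed to 82.7 against 52.3 CPM at 22 months and 48.7 against 52.0 CPM at 5 months. Summed levels of lactotrope, somatotrope and melanotrope markers were lower in the labelled females of each pair, and these sums are mostly Prl, Gh and Pomc. The 4 lactotrope markers summed to 25270 CPM against 69304 at 22 months and 5182 against 10877 at 5 months, and the 4 somatotrope markers to 16949 against 33317 and 29872 against 56565. The 5 melanotrope markers summed to 1701 against 6376 CPM and 4355 against 5405 CPM. Other markers of these lists went the other way: Angpt1 was higher in the labelled females at 22 months (431 against 338 CPM) and at 5 months (351 against 168 CPM). At 5 months Drd2 (10.6 against 5.08 CPM), Edil3 (12.2 against 7.62 CPM), Pcsk2 (70.0 against 15.2 CPM), Oacyl (45.6 against 19.0 CPM) and Rbfox3 (3.04 against 2.54 CPM) were also higher. Among the somatotrope markers Pappa2 was at 0 in the library labelled 5-month females. The 4 erythroid markers, globin genes with counts in every library, were higher in the labelled females, at 216 against 131 CPM and 132 against 64.7 CPM. The 6 endothelial markers summed to 23.3 against 12.5 CPM and 27.4 against 6.35 CPM, with Pecam1, Flt1 and Kdr at 0 in the library labelled 5-month males. None of the 6 had more than 11 UMIs in a library, and Plvap went the other way at 5 months (3.04 against 3.81 CPM). Pituicyte markers summed to 311 against 290 CPM and 246 against 156 CPM, with 5 and 5 of 6 found at 22 months and 4 and 2 of 6 at 5 months. Most of each sum was Slc1a3, at 295 against 276 CPM at 22 months and 210 against 149 CPM at 5 months. Nkx2-1 was at 0 in all but the library labelled 22-month males, and Rax in all but that labelled 22-month females. The part of these transcripts in the members' differences was not tested.

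Across classes, Snhg11 was highest in melanotrope-like nuclei, which make melanocyte-stimulating hormone, at 2117 ± 264 CPM (SD over the 4 libraries, which differ in label). Gonadotrope-like nuclei followed at 1373 ± 519 CPM and corticotrope-like at 818 ± 539 CPM. Stem-like nuclei stood at rank 7 of 11 with 439 ± 362 CPM, and pituicyte-like nuclei came last at 50.5 ± 21.6 CPM. The ranges over libraries of every neighbouring pair of classes in this order overlapped.

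Beside stem-like nuclei, Snhg11 was at least 2-fold higher in labelled females in both pairs in 3 other classes. In corticotrope-like nuclei, where 0.287% of genes passed that rule, it had 1383 and 1175 CPM in the labelled 22-month and 5-month females, against 327 and 388 CPM in the labelled 22-month and 5-month males, for ratios of 4.23 (3.72 to 4.82) and 3.03 (2.66 to 3.45). In thyrotrope-like nuclei, with a background of 0.46%, it had 727 and 963 CPM against 237 and 446 CPM, for ratios of 3.06 (2.70 to 3.48) and 2.16 (1.93 to 2.42). In lactotrope-like nuclei, with a background of 0.634%, it had 366 and 934 CPM against 173 and 421 CPM, for ratios of 2.11 (2.03 to 2.20) and 2.22 (2.13 to 2.31). In the first 2 of these classes the labelled females and males did not overlap, whereas in lactotrope-like nuclei the library labelled 22-month females lay below that labelled 5-month males. Gonadotrope-like, somatotrope-like and macrophage-like nuclei, which did not pass the rule, were without overlap of the library levels too. In macrophage-like nuclei the intervals did overlap, at 229 (186 to 280) CPM in the labelled 22-month females and 212 (149 to 292) CPM in the labelled 5-month males. The share of all genes without overlap was not counted. With doublets kept, the 5-month ratio in thyrotrope-like nuclei was 1.88, under 2-fold. In corticotrope-like nuclei of the library labelled 22-month females, the 10 richest of 74 nuclei held 72.5% of the 641 Snhg11 UMIs. A single nucleus held up to 119. That share was 33.7% in the labelled 5-month females, and 41.8% and 37.9% in the labelled 22-month and 5-month males. With at least 1000 genes per barcode, the 22-month ratio in corticotrope-like nuclei was 3.19. Without the 2 libraries in doubt, the ratio of labelled 22-month females to labelled 5-month males was 3.56 (3.13 to 4.07) in corticotrope-like, 1.63 (1.47 to 1.81) in thyrotrope-like and 0.870 (0.834 to 0.908) in lactotrope-like nuclei. Only the first was at least 2-fold. This single contrast also differs in labelled age, so the rule of 2-fold in both pairs does not apply to it.

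In the other 7 classes Snhg11 did not pass, nor did Mogat1 or Lrp2 in any class beside the stem-like one, where Mogat1 reached 40 counts in 2 classes and Lrp2 in 1. The rule was met by 0.315% of genes in pituicyte-like, 0.325% in melanotrope-like, 0.762% in gonadotrope-like, 0.599% in somatotrope-like, 0.798% in fibroblast and mural-like, 0.676% in endothelial-like and 0.952% in macrophage-like nuclei.

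The labelled 22-month lactotrope-like nuclei sat mostly in different clusters, 6 and 12 in females and 7 and 11 in males. Within clusters the 22-month ratio was 1.20 in cluster 6, 3.02 in cluster 7, 1.94 in cluster 11 and 3.13 in cluster 12. The 5-month ratio, within cluster 10, was 2.22. All 5 had the same direction.

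By labelled age, Snhg11 was lower in the labelled 22-month lactotrope-like nuclei, at ratios to the labelled 5-month nuclei of 0.392 (0.380 to 0.405) among labelled females and 0.412 (0.393 to 0.432) among labelled males, which is further from 1 than its ratios by labelled sex there. Mogat1 also passed the 2-fold rule downward, at 0.791 against 1.76 CPM among labelled females and 0.531 against 1.36 CPM among labelled males, on 10 to 16 UMIs a library. In this class 7.27% of all genes passed that rule, and nuclei of the 2 labelled ages lay in different clusters. These ratios also set libraries rich in Xist against libraries rich in Y-linked transcripts, so labelled age is not set apart from sex. The part of either was not tested. No other class had a member pass by labelled age in both labelled sexes.

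In somatotrope-like nuclei, which passed the threshold in 1 pair only, Snhg11 had 308 and 355 CPM in the labelled 22-month and 5-month females, against 145 and 269 CPM in the labelled 22-month and 5-month males. The ratio was 2.13 (1.98 to 2.29) at 22 months and 1.32 (1.26 to 1.38) at 5 months. Within clusters it was 2.05 in cluster 1 and 3.49 in cluster 2 at 22 months, and 1.15 in cluster 2 and 1.91 in cluster 13 at 5 months. Gonadotrope-like nuclei had 1913 and 1556 CPM against 1342 and 680 CPM, for ratios of 1.43 (1.35 to 1.502) and 2.29 (2.12 to 2.48). Their labelled 22-month nuclei lay mostly in cluster 20 and their labelled 5-month nuclei in cluster 22. Macrophage-like nuclei had 229 and 347 CPM against 91.1 and 212 CPM, for ratios of 2.52 (1.53 to 4.36) and 1.64 (1.08 to 2.53), and the first rests on 19 UMIs in the library labelled 22-month males. It was 0.787 with at least 1000 genes per barcode.

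Melanotrope-like nuclei, the richest in Snhg11, did not show the same gap. They had 1725 and 2245 CPM in the labelled 22-month and 5-month females, against 2296 and 2203 CPM in the labelled 22-month and 5-month males, for ratios of 0.751 (0.723 to 0.781) and 1.02 (0.975 to 1.07). Most of the nuclei labelled 5-month males formed cluster 24, led by Fos and Junb, which are immediate early genes. In cluster 16, which holds the other melanotrope-like nuclei, the 5-month ratio was 2.07 (1.87 to 2.30), with 2232 CPM in 368 nuclei against 1078 CPM in 93.

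Fibroblast and mural-like nuclei had Snhg11 at 541 and 814 CPM in the labelled 22-month and 5-month females, against 629 and 479 CPM in the labelled 22-month and 5-month males, for ratios of 0.861 (0.725 to 1.02) at 22 months and 1.70 (1.37 to 2.12) at 5 months. Pituicyte-like nuclei had 35.5 and 64.5 CPM against 73.2 and 29.1 CPM, and both intervals of the ratio include 1. Endothelial-like nuclei had 54 and 25 UMIs in the labelled 22-month and 5-month females, against 102 and 1 in the labelled 22-month and 5-month males. These came from 9 and 7 nuclei against 15 and 1, with up to 30 and 18 UMIs in a single nucleus against up to 32 and 1. With doublets kept, the 22-month ratio turned to 1.64 in pituicyte-like and 1.52 in endothelial-like nuclei.

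**Figure D4:**
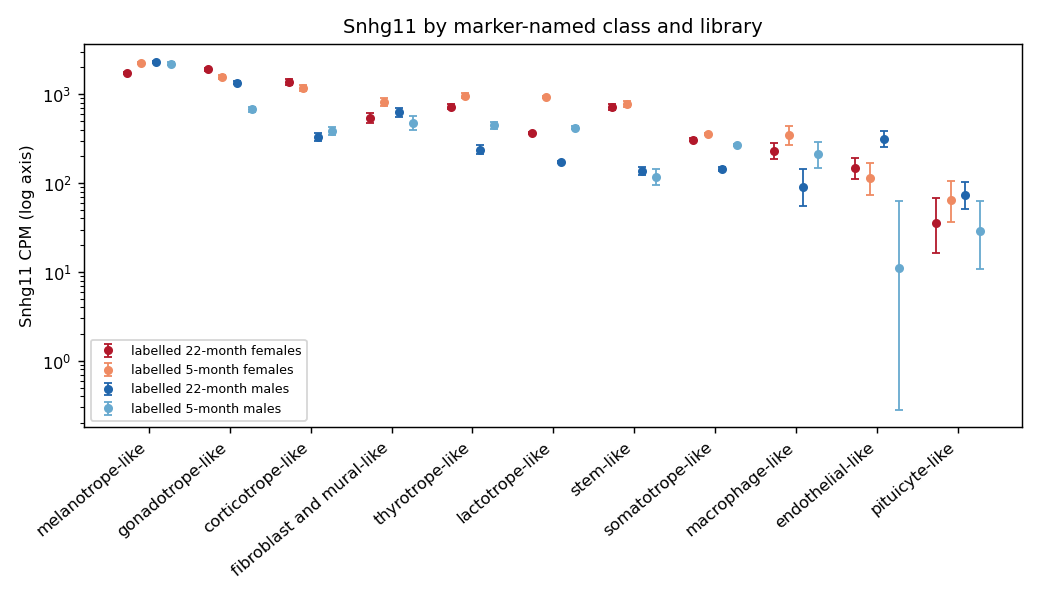
Snhg11 level in each marker-named class and library, on a log axis of counts per 1000000 UMIs of the class, with classes ordered by their mean over libraries. Points are libraries and bars 95% Poisson intervals. The red and orange points of the labelled females stand above the blue ones in stem-like, corticotrope-like, thyrotrope-like, gonadotrope-like, somatotrope-like and macrophage-like nuclei. They do not in the other classes, melanotrope-like among them. In macrophage-like nuclei the bars overlap, and the share of all genes in such an order was not counted.

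Mogat1 was largely a stem-like transcript. Stem-like nuclei held 136 of its 267 UMIs in the named classes, 50.9%, although they were 5.78% of those nuclei. Its mean was 35.4 CPM in stem-like nuclei and at most 1.84 CPM in any other class. Pituicyte-like nuclei had no UMI among 240, which allows a share of nuclei with a UMI, not of expressing nuclei, of up to 1.25%. Lactotrope-like nuclei had 15 and 16 UMIs in the labelled 22-month and 5-month females, against 12 and 10 in the labelled 22-month and 5-month males, with ratios of 1.49 and 1.29. Somatotrope-like nuclei had 13 and 12 UMIs against 9 and 22, with ratios of 1.87 and 0.647. Neither class passed 2-fold in either pair.

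Lrp2 had its highest level in pituicyte-like nuclei, which held 203 of its 338 UMIs in the named classes, 60.1%, in 0.819% of the nuclei. Stem-like nuclei held 32.2%, and the level of every other class was at most 0.548 CPM on average. The ranges over libraries of pituicyte-like, 87.8 to 268 CPM, and stem-like nuclei, 7.62 to 47.2 CPM, did not overlap. In pituicyte-like nuclei Lrp2 had 68 and 53 UMIs in the labelled 22-month and 5-month females, against 42 and 40 in the labelled 22-month and 5-month males. These gave 268 and 228 CPM against 87.8 and 194 CPM, so only the library labelled 22-month males stood low. The ratio was 3.05 (2.05 to 4.601) at 22 months and 1.18 (0.765 to 1.82) at 5 months, and the difference between these ratios was not tested. Lrp2 was in 60.4% and 55.3% of pituicyte-like nuclei of the labelled females, against 27.3% and 52.2% of the labelled males.

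**Figure D5:**
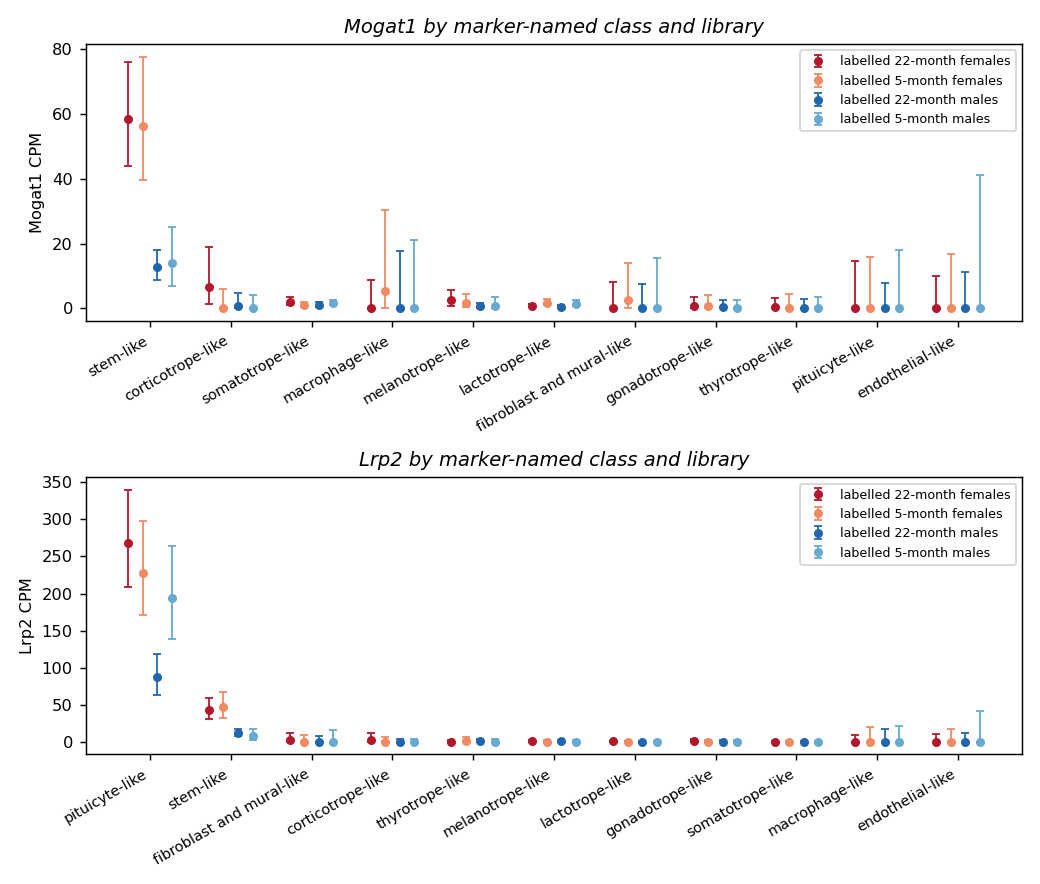
Mogat1 (top) and Lrp2 (bottom) in each marker-named class and library, in counts per 1000000 UMIs of the class, with 95% Poisson intervals for counting error as bars. Mogat1 stands above 10 CPM in stem-like nuclei of every library, and Lrp2 is highest in pituicyte-like nuclei, where the library labelled 22-month males is lowest at 87.8 CPM.

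Lists of genes related to the members were read against the 0.236% of all genes that were 2-fold higher and the 0.327% that were lower in both pairs in stem-like nuclei. At these shares a list of 20 genes would seldom hold a call, so a count of 0 shows nothing particular to a list. Of 27 listed genes of the low-density lipoprotein receptor family and the partners of megalin, 20 had enough counts, and none was 2-fold higher or lower in both pairs. The median of their mean log2 fold over both pairs was 0.02, beside 0.03 for all 11002 genes. Dab2, an adaptor that links megalin to endocytosis, had log2 folds of 0.44 at 22 months and 0.39 at 5 months. Lrp1, a related endocytic receptor, had 0.20 and 1.23, and Apoe, a lipoprotein ligand of the family, -0.04 and 1.27.

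Of 30 listed genes of glycerolipid synthesis and lipid droplets, 14 had enough counts, none passed in both pairs, and the median was 0.08. Dgat1, which turns diacylglycerol into triacylglycerol, had log2 folds of 0.45 and 0.23. Gpam, which starts glycerolipid synthesis at glycerol-3-phosphate, had 0.25 and 0.53. Of 26 listed small nucleolar RNA host genes and other long noncoding RNAs in the files, 19 had enough counts, none passed in both pairs, and the median was -0.12. Gas5, another host of small nucleolar RNAs, had -0.46 and -0.30, and Snhg9 -1.78 and -0.47.

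None of the neighbouring genes with enough counts passed it either. Next to Snhg11, Snhg17 had log2 folds of -0.28 at 22 months and 0.36 at 5 months, Lbp 0.24 and 0.29, and Ralgapb 0.48 and -0.05. BC035947 overlaps the 5′ end of Mogat1 on the other strand and had -0.27 and 0.81, with 44.5 and 62.4 CPM in the labelled 22-month and 5-month females, against 53.9 and 34.3 CPM in the labelled 22-month and 5-month males. The sources used here do not say whether counting used strand, so reads in that overlap cannot be assigned to either gene. Beside Lrp2, Bbs5 had 0.12 and 0.09 and Fastkd1 -0.17 and 0.40.

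Over 44 points, 11 classes in 4 libraries, the genes with the pattern most like each member were found among 15570 genes by Pearson's r of log2(CPM + 1), as a description only, since points share libraries and depth. Snhg11 was most like Mkx (r = 0.86), Gm32926, Scml4, Tln2 and Macrod2. Mogat1 was most like Frmpd3 (r = 0.85), Fam163a, Gm3289, Tmem211 and Il17re, and Lrp2 most like Slco1a5 (r = 0.92), Tex11, Lgr6, Otx2os1 and Fbn2. Between the members r was 0.21 for Snhg11 and Mogat1, -0.43 for Snhg11 and Lrp2, and 0.28 for Mogat1 and Lrp2.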

How the data were processed

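The deposited files hold raw counts, unique transcripts per gene and barcode, made by the authors with Cell Ranger 7.0.1, per the file headers, on build mm10, per the submitters' processing notes. Nuclei came from snap-frozen glands by 10x Genomics 3' capture that aimed at 10000 nuclei a library, per the labels' protocols. The sources used here do not say whether counts include intronic reads.

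Barcodes under 500 genes or over 5% mitochondrial counts were removed, then those with a Scrublet score over 0.135. That value is the median of the 4 automatic thresholds (0.123, 0.128, 0.569 and 0.141 for 22-month females, 5-month females, 22-month males and 5-month males), used after they were seen. It removed 11.0%, 11.1%, 14.2% and 10.5% of barcodes. The 4 libraries were clustered jointly with scanpy 1.11.5 (3000 variable genes, 30 components, 15 neighbours, Leiden at resolution 1) without correction between libraries. Variable genes excluded the members, sex-linked genes and 7 hormone genes. Clusters were named from marker lists, with thresholds set after the clusters were seen. Counts were summed by class and library and scaled to CPM. Genes with at least 40 counts over the 4 libraries were counted as 2-fold different with a prior count of 2. Ratios have exact binomial, levels exact Poisson and shares Clopper-Pearson intervals at 95%, for counting error only. No test was made, since each group is 1 library and the members were chosen on this contrast. Factors of edgeR 4.0.16 and DESeq2 1.42.0 served as other scalings only. The count of folds was tested on simulated data.

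The members, lists and markers were chosen with earlier results of these data known. Genes named are the members, for each the 5 most alike over classes and libraries, the 5 next genes by the smaller fold, and the 3 nearest annotated genes on each side of each member. Examples from the listed families, none of which passed 2-fold in both pairs, were chosen after their values were seen. Promoter sequences are RefSeq's, and all 3 members matched.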

Additional observations from a re-analysis of the deposited data

Results flagged for a closer look

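Snhg11 went in opposite directions in the pairs of the 2 labelled ages in endothelial-like nuclei, with a ratio of labelled females to labelled males of 0.467 (95% interval 0.329 to 0.655) at 22 months and 10.3 (1.68 to 421) at 5 months. The second rests on 1 UMI in the library labelled 5-month males. In melanotrope-like cluster 16 the ratio was 0.751 (0.723 to 0.781) at 22 months and 2.07 (1.87 to 2.30) at 5 months, where 278 nuclei labelled 5-month males lay in cluster 24 instead. In both cases the difference between the pairs was not tested.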

How the results depend on the processing

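No paired analysis was possible because the labels give no replicate numbers that could pair libraries, and no result comes from a test. The members were chosen for higher counts in labelled females in stem-like nuclei, so nothing is read from the direction of their ratios there. Those ratios stayed above 1 in both pairs under all 11 alternatives. On the log2 scale they ranged from 1.51 to 2.42 at 22 months and 1.69 to 2.74 at 5 months for Snhg11, 1.97 to 2.18 and 1.58 to 2.34 for Mogat1, and 1.68 to 2.14 and 2.36 to 2.69 for Lrp2. Snhg11 moved most with doublets kept, to 1.51 and 1.69, and with at most 3 UMIs counted per nucleus, an alternative chosen after seeing the data, to 1.75 and 2.11. The cause was not tested. The number of genes 2-fold higher in both pairs was 26, against 13 with TMM factors, 13 without the hormone genes in the totals, 113 with no filter on counts and 9 with at least 200 counts. Snhg11 changed direction at 22 months in pituicyte-like (log2 0.71) and endothelial-like nuclei (0.60) with doublets kept, and in macrophage-like nuclei (-0.35) with at least 1000 genes per barcode. Depth limits Mogat1 and Lrp2, which rest on 136 and 109 UMIs in stem-like nuclei.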
